A study of Mus musculus with 36 samples.

Results

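Prg4, Alox15, C6, Gypc, Slco4a1, Fgfr1 and Ltc4s are 7 of the 12795 genes in a table of read counts from sorted mouse heart macrophages. They were chosen by name, with earlier results of these libraries in view, as genes that may vary together and lie highest in CCR2-negative cells of the groups called Cre-neg. The comparisons that set those groups against the others are therefore described without a test, and tests are given for the other comparisons. Most of the Prg4 and Alox15 signal lay in those groups. C6 had higher means in Cre-neg cells too, but did not follow the CCR2 part. Its means in CCR2-positive Cre-neg cells were close to those in CCR2-negative Cre-neg cells. Of the 7 it alone was called as lower with TFEB, and only in CCR2-negative cells, where 0.453% of all genes were. How much of that C6 difference came with the TFEB transgene without Cre was not resolved.

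Macrophages were sorted from hearts by CCR2, the chemokine receptor of monocyte-derived cells, into a CCR2-negative (CCR2neg) and a CCR2-positive (CCR2pos) fraction, and polyA RNA was sequenced. Mice were fed tamoxifen and had 90 min of ischemia after 7 days of induction, and cells were taken 7 days after the ischemia. Each fraction held 4 groups: mac-TFEB (TFEB-TG with Cre, 4 libraries), CX3CR1-Cre (TFEB-wt with Cre, 5 libraries), TFEB-TG Cre-neg (4 libraries) and TFEB-wt Cre-neg (5 libraries), which makes 36 libraries. TFEB-TG cells carry a cassette for TFEB, a transcription factor of lysosomal genes, behind a floxed stop sequence, and TFEB-wt cells carry none. The labels give every mouse a Cx3cr1-er-Cre and a Td-Tomato-LoxSTOP allele, while the series' design text calls the Cre-neg samples cells that lack Cre; how those cells were obtained is not stated. The Cx3cr1 promoter is active in monocytes and in many macrophages, so the driver is not limited to 1 kind of macrophage. Neither the age of the mice nor whether equally numbered libraries came from 1 animal is stated. A p-value here therefore reflects the variation among these libraries, part of which may be technical.

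Libraries held 13797484 to 32645783 counts, with a median of 19676039. Levels are given as CPM, which relates a count to the TMM-scaled library size and is not corrected for gene length. Tfeb checked the labels: it averaged 188 ± 127 CPM in CCR2neg mac-TFEB and 7.91 ± 0.92 CPM in CCR2neg CX3CR1-Cre cells (SD, n = 4 and 5). It was also higher without Cre where the cassette was present, at 21.1 ± 10.6 CPM in TFEB-TG Cre-neg against 6.65 ± 2.48 CPM in TFEB-wt Cre-neg CCR2neg cells. Ccr2 averaged 47.2 to 73.7 CPM in the 4 CCR2neg groups and 651 to 868 CPM in the 4 CCR2pos groups. Cx3cr1, the gene that drives Cre, averaged 430 ± 103 CPM in CX3CR1-Cre against 212 ± 52.1 CPM in TFEB-wt Cre-neg CCR2neg cells, a called difference of 1.02 on the log2 scale (adjusted p = 0.00186, edgeR). Replicate 1 of CCR2neg TFEB-TG Cre-neg stood apart in the sum of 7 measured cardiomyocyte genes (461 CPM, against 24.8 to 77.4 CPM in the other 8 CCR2neg Cre-neg libraries) and of 11 monocyte genes (3650 CPM, of which Chil3 made up 3450 CPM, against 195 to 1230 CPM).

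Macrophages of the serous cavities, the fluid-filled spaces around the gut, lungs and heart, are known in mice as a long-lived population that depends on the transcription factor Gata6 and on retinoic acid. Resident peritoneal macrophages are known for Prg4, Alox15 and coagulation factor F5. Prg4 encodes lubricin, a secreted glycoprotein that lubricates joints and serous surfaces. Alox15 encodes a lipoxygenase that adds oxygen to polyunsaturated fatty acids, and Ltc4s the synthase that joins glutathione to leukotriene A4 to make leukotriene C4. C6 is a complement protein of the membrane attack complex, Fgfr1 a receptor tyrosine kinase for fibroblast growth factors, Gypc a membrane sialoglycoprotein known from human red cells for binding the protein 4.1 skeleton, and Slco4a1 an organic anion transporter.

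The label of a serous-cavity type was checked against Gata6. Gata6 averaged 2.32 ± 2.71 CPM in TFEB-TG Cre-neg and 1.40 ± 0.554 CPM in TFEB-wt Cre-neg CCR2neg cells, and its group means elsewhere were 0.501 to 1.16 CPM. Gata6 was called in none of the 14 comparisons fitted. In mac-TFEB against Cre-neg TFEB-TG CCR2neg cells it was at 0.501 ± 0.311 against 2.32 ± 2.71 CPM, lower in 4 of 4 labels without overlap (log2 -2.20 ± 0.79, adjusted p = 0.367; 1.59% of all genes were lower without overlap). The highest mac-TFEB value there was 0.738 CPM and the lowest Cre-neg value 0.752 CPM. The Cre-neg median was 1.08 CPM, with 1 library at 6.36 CPM. At these levels of Gata6 the 7 genes are called here by name and not by a cell type. Timd4, a phosphatidylserine receptor that resident heart macrophages also carry, averaged 117 ± 34.8 and 174 ± 73.9 CPM in the same groups.

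RefSeq promoter windows (GRCm38.p6, 250 bases before to 50 after the start of a transcript) matched 3 of the 7 genes, C6, Slco4a1 and Ltc4s. For each of these 3 genes 1 window is shown. Capitals mark GATAA or its reverse complement TTATC, the core recognised by GATA factors, and CACGTG, the palindromic core recognised by TFEB. Each was searched on both strands. The windows are chr15:4726960-4727259 (plus strand, C6), chr2:180455995-180456294 (plus strand, Slco4a1) and chr11:50238483-50238782 (minus strand, Ltc4s), each printed 5′ to 3′ along its gene.
C6: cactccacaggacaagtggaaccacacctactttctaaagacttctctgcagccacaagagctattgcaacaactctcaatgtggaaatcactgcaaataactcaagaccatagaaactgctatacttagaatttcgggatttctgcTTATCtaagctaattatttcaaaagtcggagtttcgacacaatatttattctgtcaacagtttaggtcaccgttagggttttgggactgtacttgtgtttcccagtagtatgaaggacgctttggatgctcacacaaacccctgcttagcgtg
Slco4a1: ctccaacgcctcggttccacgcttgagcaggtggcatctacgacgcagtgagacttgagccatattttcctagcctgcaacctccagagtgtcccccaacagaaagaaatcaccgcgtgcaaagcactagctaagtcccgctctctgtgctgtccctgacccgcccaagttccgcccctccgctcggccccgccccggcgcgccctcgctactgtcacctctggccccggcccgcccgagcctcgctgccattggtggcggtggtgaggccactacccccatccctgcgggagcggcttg
Ltc4s: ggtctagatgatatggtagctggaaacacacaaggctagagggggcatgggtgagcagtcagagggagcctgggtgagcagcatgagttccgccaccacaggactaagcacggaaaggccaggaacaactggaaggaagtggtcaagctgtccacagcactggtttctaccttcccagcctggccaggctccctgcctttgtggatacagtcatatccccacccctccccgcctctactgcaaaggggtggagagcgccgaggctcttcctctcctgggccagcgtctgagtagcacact
The C6 window held 1 TTATC, at position -103 from the start, and no CACGTG, and the other 2 windows held neither motif, so no matches overlapped. Of 32851 promoter windows, 25.4% held the GATA core and 7.15% held CACGTG. A match of letters is a description of the window and says nothing on binding in these cells. A second RefSeq window of Slco4a1 also held neither. Prg4, Alox15, Gypc and Fgfr1 had no window in the table.

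Prg4 (chromosome 1, 150449412 to 150466165, minus strand, GRCm38) was the gene with the highest share of its expression in CCR2neg Cre-neg cells. It stood at 61.2, 33.4, 38.0 and 6.75 CPM in CCR2neg TFEB-TG Cre-neg libraries and at 36.9, 22.3, 30.3, 32.0 and 55.6 CPM in CCR2neg TFEB-wt Cre-neg libraries. All but 1 of these 9 values lay above every other library; the exception was replicate 4 of TFEB-TG at 6.75 CPM. In CCR2neg cells with Cre, Prg4 had 5.62, 2.37, 8.40 and 2.12 CPM in mac-TFEB and 7.20, 1.96, 4.16, 5.06 and 3.72 CPM in CX3CR1-Cre. In the CCR2pos fraction it had 1.15, 2.10, 1.66 and 0.615 CPM in mac-TFEB, 1.29, 0.278, 0.570, 0.464 and 0.619 CPM in CX3CR1-Cre, 3.15, 1.66, 3.37 and 1.80 CPM in TFEB-TG Cre-neg and 2.28, 1.23, 0.917, 3.51 and 4.94 CPM in TFEB-wt Cre-neg. By group mean the order was CCR2neg Cre-neg, CCR2neg with Cre, CCR2pos Cre-neg and CCR2pos with Cre. The 2 CCR2neg Cre-neg groups did not differ beyond their SD, nor did the 2 CCR2neg groups with Cre, and CCR2neg libraries with Cre overlapped CCR2pos Cre-neg ones. Prg4 shares 204 exon bases with Tpr on the opposite strand. The protocol did not keep strand, so reads of the 2 genes cannot be told apart there.

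Alox15 (chromosome 11, 70344152 to 70352031, minus strand) had its highest levels in the same groups. It stood at 143, 182, 198 and 31.1 CPM in CCR2neg TFEB-TG Cre-neg and at 154, 151, 65.0, 170 and 225 CPM in CCR2neg TFEB-wt Cre-neg libraries. With Cre, CCR2neg cells had 28.1, 24.4, 46.6 and 3.71 CPM in mac-TFEB and 33.4, 22.1, 7.55, 15.3 and 27.1 CPM in CX3CR1-Cre. Replicate 4 of CCR2neg TFEB-TG Cre-neg was again the lowest of the 9, and 2 CCR2neg libraries with Cre lay above it. In CCR2pos cells Alox15 had 2.51 to 21.2 CPM in mac-TFEB, 1.62 to 6.12 CPM in CX3CR1-Cre, 2.91 to 24.6 CPM in TFEB-TG Cre-neg and 4.38 to 18.8 CPM in TFEB-wt Cre-neg libraries. Per kilobase of exon the mean levels were 62.3 CPM for Alox15 and 8.27 CPM for Prg4 in CCR2neg TFEB-wt Cre-neg cells, so Alox15 was the more abundant of the pair also when length is taken into account. In bulk RNA, fewer cells that carry a transcript and less of it in each cell cannot be told apart.

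**Figure D1:**
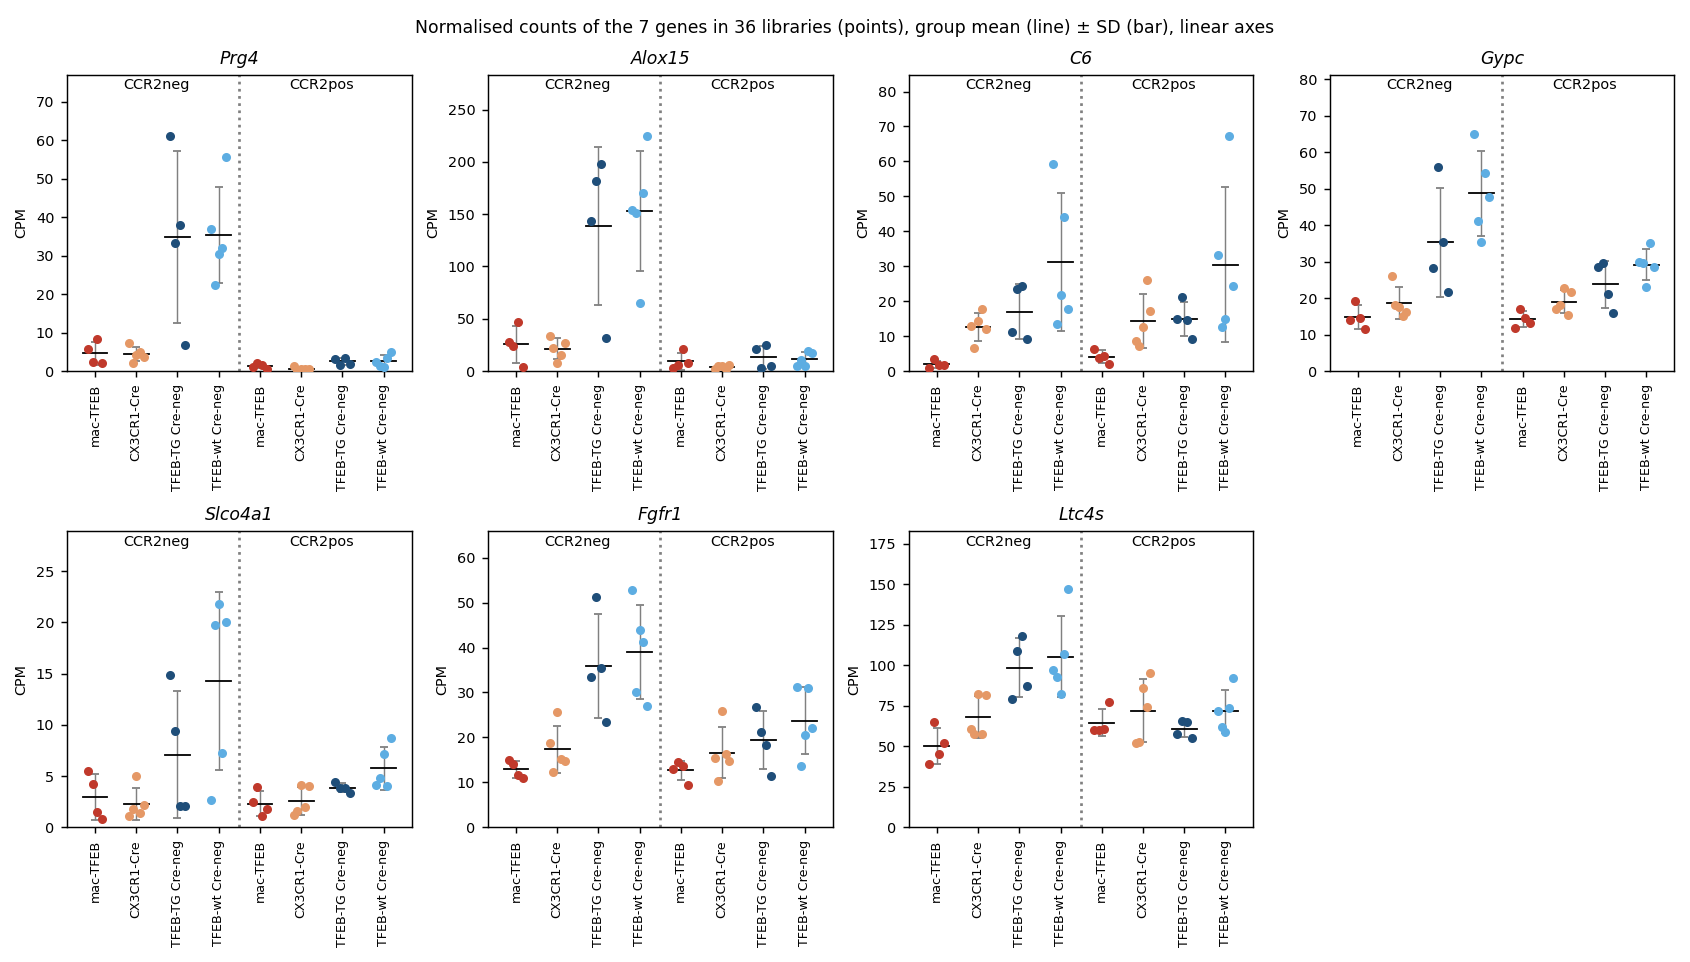
CPM (linear axes) of the 7 genes in each of 36 libraries (points) by group, with the group mean (black line) and SD (grey bar); the 4 CCR2neg groups are left of the dotted line and the 4 CCR2pos groups right of it. Prg4 and Alox15 are high in CCR2neg Cre-neg groups, where Prg4 averaged 34.8 and 35.4 CPM, and C6 is lowest in mac-TFEB of both fractions, at 1.90 and 4.09 CPM.

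The other 5 genes were less concentrated. As a measure that weights groups equally, the share of the 8 summed group means that fell in the 2 CCR2neg Cre-neg groups was 81.3% for Prg4, 77.5% for Alox15, 51.9% for Slco4a1, 42.2% for Fgfr1, 41.3% for Gypc, 38.1% for C6 and 34.5% for Ltc4s. Over all 12795 genes the median share was 25.1%, the 95th percentile 33.3% and the 99th 45.2%. Prg4 ranked 1 and Alox15 ranked 2 among all genes, and 67 genes had a share as large as that of Slco4a1 or larger, against 511 for Ltc4s. These ranks restate how the genes were chosen. Leaving out each library in turn, a check added after seeing the data, kept the share of Prg4 at 79.2% to 83.1% and that of Alox15 at 76.0% to 79.5%. The upper ends were those without replicate 4 of CCR2neg TFEB-TG Cre-neg, and the lower end of Prg4 was that without replicate 1 of the same group. None of the 7 had all 9 CCR2neg Cre-neg libraries above all 27 others; 0.0156% of all genes did.

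**Figure D2:**
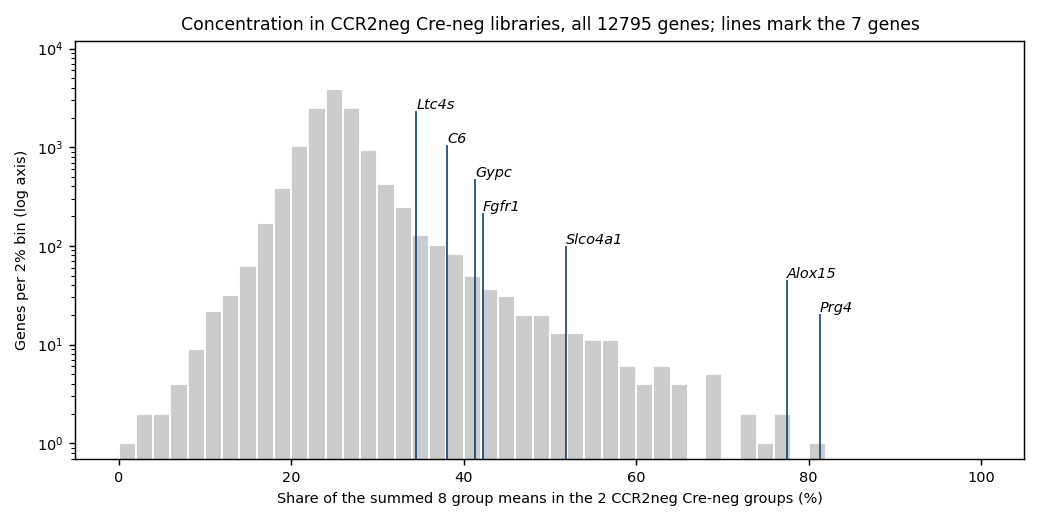
Histogram of all genes (vertical log axis, number of genes per bin) by the share of the 8 summed group means found in the 2 CCR2neg Cre-neg groups (horizontal axis, percent), with vertical lines at the 7 genes, whose heights only separate the names. Most genes lie near 25.1%, and Prg4 (81.3%) and Alox15 (77.5%) lie at the right end.

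Slco4a1 (chromosome 2, 180456245 to 180474867, plus strand) was high in only part of the CCR2neg Cre-neg libraries. It had 14.9, 9.35, 2.07 and 2.07 CPM in TFEB-TG Cre-neg and 2.64, 19.7, 21.8, 7.28 and 20 CPM in TFEB-wt Cre-neg CCR2neg libraries. The 27 other libraries lay between 0.794 and 8.69 CPM, so 4 of the 9 lay within the range of the others. Low Slco4a1 did not always go with low Prg4. Replicate 4 of TFEB-TG was low in both, but replicate 3 of TFEB-TG had 38.0 CPM of Prg4 and replicate 1 of TFEB-wt 36.9 CPM.

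Fgfr1 (chromosome 8, 25513654 to 25575718, plus strand) and Gypc (chromosome 18, 32528322 to 32560034, minus strand) had higher means in Cre-neg cells than in cells with Cre in both fractions; in CCR2pos cells this difference was tested and not called. Fgfr1 had 33.5, 51.3, 35.5 and 23.4 CPM in TFEB-TG Cre-neg and 52.8, 30, 43.9, 41.2 and 27.1 CPM in TFEB-wt Cre-neg CCR2neg libraries. In CCR2pos cells its means were 12.7 ± 2.21 CPM in mac-TFEB, 16.5 ± 5.67 CPM in CX3CR1-Cre, 19.4 ± 6.41 CPM in TFEB-TG Cre-neg and 23.7 ± 7.51 CPM in TFEB-wt Cre-neg. Gypc had 28.3, 56.1, 35.4 and 21.6 CPM in TFEB-TG Cre-neg and 65.1, 41.2, 35.3, 54.3 and 47.6 CPM in TFEB-wt Cre-neg CCR2neg libraries. Its 4 groups with Cre averaged 14.2 to 19.0 CPM, and the CCR2pos Cre-neg groups 23.8 ± 6.48 CPM (TFEB-TG) and 29.2 ± 4.26 CPM (TFEB-wt), so the order of group means was the same for both genes except for the 2 CX3CR1-Cre groups. Neighbours in that order among the groups with Cre did not differ beyond their SD. Fgfr1 shares 164 exon bases with the antisense gene Gm16159, so its counts are uncertain to that extent.

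Ltc4s (chromosome 11, 50236461 to 50238616, minus strand) was the most evenly spread of the 7. It had 78.9, 109, 118 and 87.4 CPM in TFEB-TG Cre-neg and 97.2, 92.6, 82.4, 107 and 147 CPM in TFEB-wt Cre-neg CCR2neg libraries, and its other 6 group means lay between 50.4 and 72.0 CPM. The CCR2pos libraries of CX3CR1-Cre reached 95.2 CPM, inside the range of the CCR2neg Cre-neg libraries. Ltc4s shares 268 of its 1014 exon bases with the antisense gene Gm26542, and reads of the 2 cannot be told apart here.

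C6 (chromosome 15, 4727175 to 4814967, plus strand) went against the pattern the genes were chosen for. It had 11.1, 23.5, 24.2 and 9.31 CPM in TFEB-TG Cre-neg and 59.4, 13.4, 21.7, 44.0 and 17.7 CPM in TFEB-wt Cre-neg CCR2neg libraries. In CCR2pos cells it had 15.0, 21.2, 14.5 and 9.22 CPM in TFEB-TG Cre-neg and 33.1, 12.5, 15.0, 67.4 and 24.3 CPM in TFEB-wt Cre-neg libraries. The fractions covered the same range, and the library with the most C6 was a CCR2pos one.

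The differences on which the genes were chosen are listed once, as descriptions. Between CX3CR1-Cre and Cre-neg CCR2neg TFEB-wt cells the log2 fold changes were -3.00 for Prg4, -2.86 for Alox15, -2.64 for Slco4a1, -1.39 for Gypc, -1.30 for C6, -1.17 for Fgfr1 and -0.63 for Ltc4s. The library with Cre was below the equally numbered Cre-neg library in 5 of 5 labels, except for Ltc4s with 4 of 5. Groups did not overlap for 4 of the 7 (Prg4, Alox15, Gypc, Fgfr1), where 1.92% of all genes were lower without overlap. Between mac-TFEB and Cre-neg CCR2neg TFEB-TG cells the values were -3.16 for C6, -2.90 for Prg4, -2.43 for Alox15, -1.48 for Fgfr1, -1.26 for Gypc, -1.25 for Slco4a1 and -0.96 for Ltc4s, each lower in 4 of 4 labels. Groups did not overlap for C6, Gypc, Fgfr1 and Ltc4s, where 1.59% of all genes were lower without overlap. Between CCR2neg and CCR2pos Cre-neg cells the values were 3.78 (TFEB-wt) and 3.79 (TFEB-TG) for Prg4 and 3.78 and 3.36 for Alox15, against 0.04 and 0.18 for C6. The other 4 lay between 0.56 and 1.31. Prg4 and Alox15 did not overlap in either genotype, Gypc not in TFEB-wt and Ltc4s not in TFEB-TG, where 1.54% (TFEB-wt) and 3.3% (TFEB-TG) of all genes were higher without overlap. These comparisons share the CCR2neg Cre-neg libraries, so their values are not separate evidence of the same level.

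TFEB itself, the question of the study, was asked by setting mac-TFEB against CX3CR1-Cre cells. In the CCR2neg fraction only C6 of the 7 genes was called, at an adjusted p under 0.05 over all genes. C6 had 0.795, 3.32, 1.67 and 1.81 CPM in mac-TFEB and 13, 6.57, 14.2, 17.7 and 11.9 CPM in CX3CR1-Cre libraries. Every mac-TFEB library lay below every CX3CR1-Cre library, and the mean was 6.69-fold lower (log2 -2.74 ± 0.54 (SE), adjusted p = 0.0038, edgeR). Over all genes 1.38% were called, 0.453% as lower, and 3.2% were lower without overlap. For Prg4 (4.63 ± 2.98 against 4.42 ± 1.92 CPM) the log2 difference was 0.08, with a 95% interval of -0.91 to 1.06. That of Alox15 (25.7 ± 17.6 against 21.1 ± 10.1 CPM) was 0.29 (-0.98 to 1.55), and changes within these intervals were not resolved. Ltc4s was -0.43 ± 0.18 (adjusted p = 0.258), Fgfr1 -0.42 ± 0.27, Gypc -0.33 ± 0.22 and Slco4a1 0.37 ± 0.59, none of them called.

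In the CCR2pos fraction no member was called, where 0.0391% of all genes were. C6 had 6.44, 3.83, 4.19 and 1.90 CPM in mac-TFEB and 8.57, 7.09, 12.5, 26.1 and 17.1 CPM in CX3CR1-Cre libraries, which do not overlap (log2 -1.80 ± 0.50, adjusted p = 0.566; 0.852% of all genes were lower without overlap). The test of a difference between fractions gave -0.94 ± 0.70 on the log2 scale for C6 (adjusted p = 1.0, edgeR), and none of 12795 genes was called in it (505 at an unadjusted p under 0.05; 0 with the label as a block).

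The study set the cassette apart by comparing TFEB-TG with TFEB-wt Cre-neg cells. No member was called there in either fraction (0.406% of all genes were in CCR2neg and 0.0313% in CCR2pos cells). C6 was -0.87 ± 0.47 in CCR2neg (adjusted p = 0.442) and -1.02 ± 0.47 in CCR2pos cells (adjusted p = 1.0). The mac-TFEB difference of C6 beyond that of the cassette was -1.87 ± 0.69 in CCR2neg cells, with an unadjusted p of 0.0107 and an adjusted p of 0.999, and -1.93 ± 0.46 with the label as a block (adjusted p = 0.0844). No gene was called in that difference without the block (496 at an unadjusted p under 0.05) and 32 with it, so the part of the C6 difference that belongs to the cassette was not resolved.

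Cells with Cre were also compared between fractions, a contrast without CCR2neg Cre-neg cells. The genes were chosen with earlier results of these libraries known. P-values for this contrast are therefore not independent of that choice. In CX3CR1-Cre cells Prg4 was higher in CCR2neg libraries in 5 of 5 labels, at 4.42 ± 1.92 CPM against 0.645 ± 0.386 CPM in CCR2pos (SD, n = 5 each). The groups did not overlap, and the log2 fold change was 2.77 ± 0.55 (adjusted p = 0.00691, edgeR; 0.203% of all genes were called as higher, and 1.48% were higher without overlap). The call of Prg4 ended without the 4 libraries of TFEB-wt label 4 (adjusted p = 0.0681), with limma-voom quality weights (adjusted p = 0.258) and with an estimated correlation between libraries of a label (adjusted p = 0.195). Alox15 had 21.1 ± 10.1 CPM in CCR2neg against 3.95 ± 2.05 CPM in CCR2pos CX3CR1-Cre cells, also without overlap. Its log2 fold change of 2.42 ± 0.65 had an adjusted p of 0.0702, and with the label as a block, which calls 1.62% of all genes as higher, 2.38 ± 0.50 and 0.00406. With an estimated correlation the Alox15 difference was not called (adjusted p = 0.118). It was also called in a fit to these libraries alone (adjusted p = 0.0126), with DESeq2 (adjusted p = 0.0143) and without replicate 4 of CCR2neg mac-TFEB (adjusted p = 0.0457) or all libraries of TFEB-TG label 4 (adjusted p = 0.03). The other 5 genes lay between -0.17 and 0.07 and were not called.

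In mac-TFEB cells no member was called. Prg4 averaged 4.63 ± 2.98 CPM in CCR2neg against 1.38 ± 0.64 CPM in CCR2pos cells, higher in 4 of 4 labels without overlap (log2 1.74 ± 0.55, adjusted p = 0.175; 0.539% of all genes were called, and 3.27% were higher without overlap). With the block it was 1.66 ± 0.40 (adjusted p = 0.0121, where 1.4% of all genes were called as higher), but adjusted p = 0.437 with an estimated correlation. Alox15 was 1.49 ± 0.68 (adjusted p = 0.526) and C6 -1.11 ± 0.55 (adjusted p = 0.604), lower in 4 of 4 labels.

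Cre status was compared in CCR2pos cells too, where the same limit holds. No member was called in CX3CR1-Cre against Cre-neg TFEB-wt cells (0.00782% of all genes were called), though 6 of the 7 values were negative. Prg4 averaged 0.645 ± 0.386 CPM in CX3CR1-Cre against 2.58 ± 1.67 CPM in Cre-neg cells, lower in 5 of 5 labels. Its log2 fold change was -1.99 ± 0.55 (adjusted p = 0.505), and -1.94 with the block (adjusted p = 0.0131, where 0.399% of all genes were called as lower), but adjusted p = 0.701 with an estimated correlation. Gypc, at 19.0 ± 3.14 against 29.2 ± 4.26 CPM, did not overlap (-0.62 ± 0.21, adjusted p = 0.589; 0.602% of all genes were lower without overlap). In mac-TFEB against Cre-neg TFEB-TG cells no member was called either (0.0156% of all genes). C6 averaged 4.09 ± 1.86 against 15.0 ± 4.92 CPM there, lower in 4 of 4 labels without overlap (-1.87 ± 0.52, adjusted p = 0.958; -1.85 ± 0.34 and 0.00921 with the block, where 0.133% of all genes were called as lower; 0.969% were lower without overlap). With an estimated correlation this C6 difference had an adjusted p of 0.638.

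The 7 genes varied together more across groups than within them. Pearson's r between log2 CPM over the 36 libraries had a median of 0.618 over the 21 pairs, and 0.207 once each group's mean was taken out. The value within groups was 0.320 without replicate 5 of CCR2neg TFEB-wt Cre-neg, 0.335 and 0.319 without the libraries of TFEB-TG labels 1 and 3, and 0.350 and 0.340 without those of TFEB-wt labels 1 and 5. Prg4 and Alox15 had an r of 0.903 over all libraries, 0.509 within groups and 0.699 over the 27 libraries that were not CCR2neg Cre-neg. Gypc and Fgfr1 had 0.870, 0.581 and 0.738, and C6 had 0.719 with Gypc and 0.700 with Fgfr1 over those 27 libraries, against -0.07 with Prg4 and -0.19 with Alox15. Slco4a1 had -0.22 with C6 within groups. Over all genes, the 95th percentile of r with Prg4 was 0.447 over the 36 libraries and 0.376 within groups. The 7 were chosen as genes that may vary together and lie highest in CCR2neg Cre-neg cells. Their r over the 36 libraries therefore largely restates that choice. Libraries share groups and, by number, possibly animals, so these values describe the set and carry no p.

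**Figure D3:**
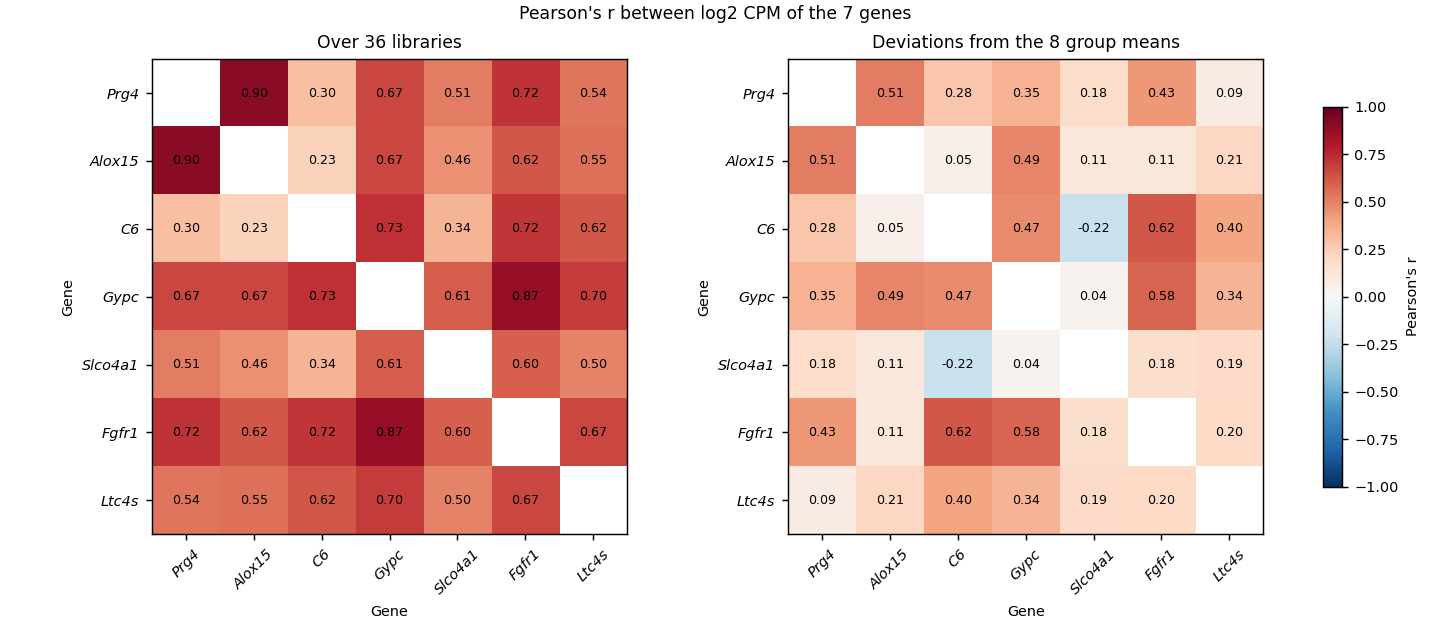
Pearson's r between log2 CPM of each pair of the 7 genes, over 36 libraries (left) and of deviations from the 8 group means (right), with colour and printed number both giving r. Prg4 with Alox15 reaches 0.90 and Gypc with Fgfr1 0.87 on the left, and within groups the highest values are 0.62 (C6 with Fgfr1) and 0.58 (Gypc with Fgfr1).

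Likeness was ranked over the 11832 other genes left after pseudogenes and provisional gene models were set aside. The genes most like the mean of the 7, by r of log2 CPM over 36 libraries, were Ccl24 (0.873), Nt5e (0.821), Fam20a (0.806), Lepr (0.805), Selp (0.796), Fcna (0.789), Cystm1 (0.786), Fgf9 (0.775), Colca2 (0.775) and Ecm1 (0.773). For Prg4 alone they included Selp (0.909), Ackr3 (0.904), Akr1b8 (0.805) and Serpinb2 (0.805), and for Alox15 alone Selp (0.921), Ackr3 (0.896), Cd9 (0.807) and Slpi (0.803). Ackr3, a scavenging receptor of the chemokine Cxcl12, averaged 29.4 CPM over the 9 CCR2neg Cre-neg libraries and 7.16 CPM over the 27 others. Selp, the adhesion molecule P-selectin, averaged 17.9 and 3.41 CPM over the same libraries. Both genes were named for their r with Prg4 and Alox15 over these 36 libraries, so these means largely restate the ranking. Within groups these r were lower throughout. They ranged for the mean of the 7 between 0.150 (Ecm1) and 0.678 (Selp). With Prg4 they were 0.577 for Selp, 0.566 for Ackr3, 0.217 for Akr1b8 and 0.0963 for Serpinb2, and with Alox15 0.695 for Selp, 0.611 for Ackr3, 0.574 for Cd9 and 0.225 for Slpi.

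A list of 24 other genes known from serous cavity macrophages, none of them among the 7, was measured in full. The list was drawn up with earlier results of these libraries known. It was tested in the same contrasts by which the 7 were chosen, so its calls are not independent support for them. In CX3CR1-Cre against Cre-neg CCR2neg TFEB-wt cells 10 of the 24 fell and none rose, with a median log2 fold change of -1.40 against 0.01 over all genes, of which 1.63% were called as lower. The matrix glycoprotein Fn1 fell to 352 ± 127 CPM in CX3CR1-Cre against 1560 ± 780 CPM in Cre-neg cells (log2 -2.14 ± 0.43, adjusted p = 0.00358, edgeR). Selp fell to 4.31 ± 0.712 against 19.4 ± 9.08 CPM (-2.17 ± 0.44, adjusted p = 0.00478), and the lectin ficolin A gene Fcna to 110 ± 19.3 against 302 ± 143 CPM (-1.45 ± 0.32). The clotting protease gene F10 fell to 21.4 ± 9.47 against 103 ± 61.9 CPM (-2.27 ± 0.51). Arg1, an arginase, and Bhlhe40, a transcription repressor, were called too, with F5, Serpinb2, Naip1 and Padi4, and each of the 10 was lower in 5 of 5 labels without overlap. Gata6 was -0.26 ± 0.67 and Timd4 -0.59 ± 0.42, neither called. Monocyte genes moved in the same comparison: 3 of 11 measured fell and none rose (median -1.07), among them S100a4 at 18.2 ± 3.11 CPM in CX3CR1-Cre against 38.8 ± 14.2 CPM in Cre-neg cells (adjusted p = 0.00703, edgeR). Their summed level was 149 to 283 CPM in CX3CR1-Cre (median 163) against 195 to 1230 CPM in Cre-neg libraries (median 329), and its part in the fall of the serous list was not tested. Ccr2, on the monocyte list, was not called (47.2 ± 18.5 against 73.7 ± 31.2 CPM, adjusted p = 0.387). The count of serous list genes was 6 without replicate 4 of CX3CR1-Cre CCR2neg, and 5, 5 and 1 without the libraries of TFEB-wt labels 2, 3 and 5.

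In mac-TFEB against Cre-neg CCR2neg TFEB-TG cells no gene of the list was called, where 0.156% of all genes were, although 22 of 24 values were negative with a median of -1.19. With the label as a block, 10 fell and 1 rose, where 1.13% of all genes fell and 1.23% rose. With an estimated correlation 6 of the 24 were called, 5 lower and 1 higher. Summed monocyte genes were at 137 to 315 CPM in mac-TFEB (median 225) against 257 to 3650 CPM in Cre-neg libraries (median 379), with none of 11 called (4 lower with the block). Serpinb2, a protease inhibitor, was at 22.3 ± 12.8 CPM in mac-TFEB against 98.7 ± 30.6 CPM in Cre-neg cells (blocked log2 -2.50, adjusted p = 0.000866), and Timd4 was among the 10 (blocked -1.11, adjusted p = 0.0417). The 1 that rose, Cd93, a receptor-like protein of myeloid and endothelial cells, was at 393 ± 55.4 against 288 ± 58.5 CPM (blocked 0.45, adjusted p = 0.0248).

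Between fractions of Cre-neg cells, 6 of the 24 were higher in CCR2neg TFEB-wt cells and none lower (median 1.35; 0.821% of all genes were called as higher). Selp was at 19.4 ± 9.08 CPM in CCR2neg against 3.10 ± 1.31 CPM in CCR2pos cells (2.65 ± 0.46, adjusted p = 0.000654), and Serpinb2 at 83.9 ± 36 against 11.4 ± 5.53 CPM (2.89 ± 0.62, adjusted p = 0.00638). Cxcl13, a B cell chemokine, was at 617 ± 344 against 142 ± 67.5 CPM (2.12 ± 0.45), and the complement receptor gene Vsig4 at 263 ± 145 against 66.4 ± 44.4 CPM (1.98 ± 0.46). The count was 3 without replicate 2 of CCR2pos TFEB-wt Cre-neg, and 2 and 3 without the libraries of TFEB-wt labels 1 and 2. With the label as a block 16 of the 24 were called in either direction, where 6.31% of all genes were. In TFEB-TG cells Cxcl13 (264 ± 45.2 against 68.4 ± 43.0 CPM) and Selp (16.1 ± 7.47 against 3.49 ± 1.87 CPM) were called as higher, where 0.789% of all genes were, and 11 genes with the block, where 3.34% were. That count of 2 was 1 without replicate 3 of CCR2neg TFEB-TG Cre-neg or without any 1 of replicates 1, 2 and 3 of CCR2pos TFEB-TG Cre-neg, and 0 without the libraries of TFEB-TG label 2. In cells with Cre, Cxcl13 alone was called in CX3CR1-Cre (333 ± 205 CPM in CCR2neg against 92.0 ± 35.9 CPM in CCR2pos; 8 higher and 1 lower with the block, where 2.7% of all genes were lower) and none in mac-TFEB (4 higher with the block).

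**Figure D4:**
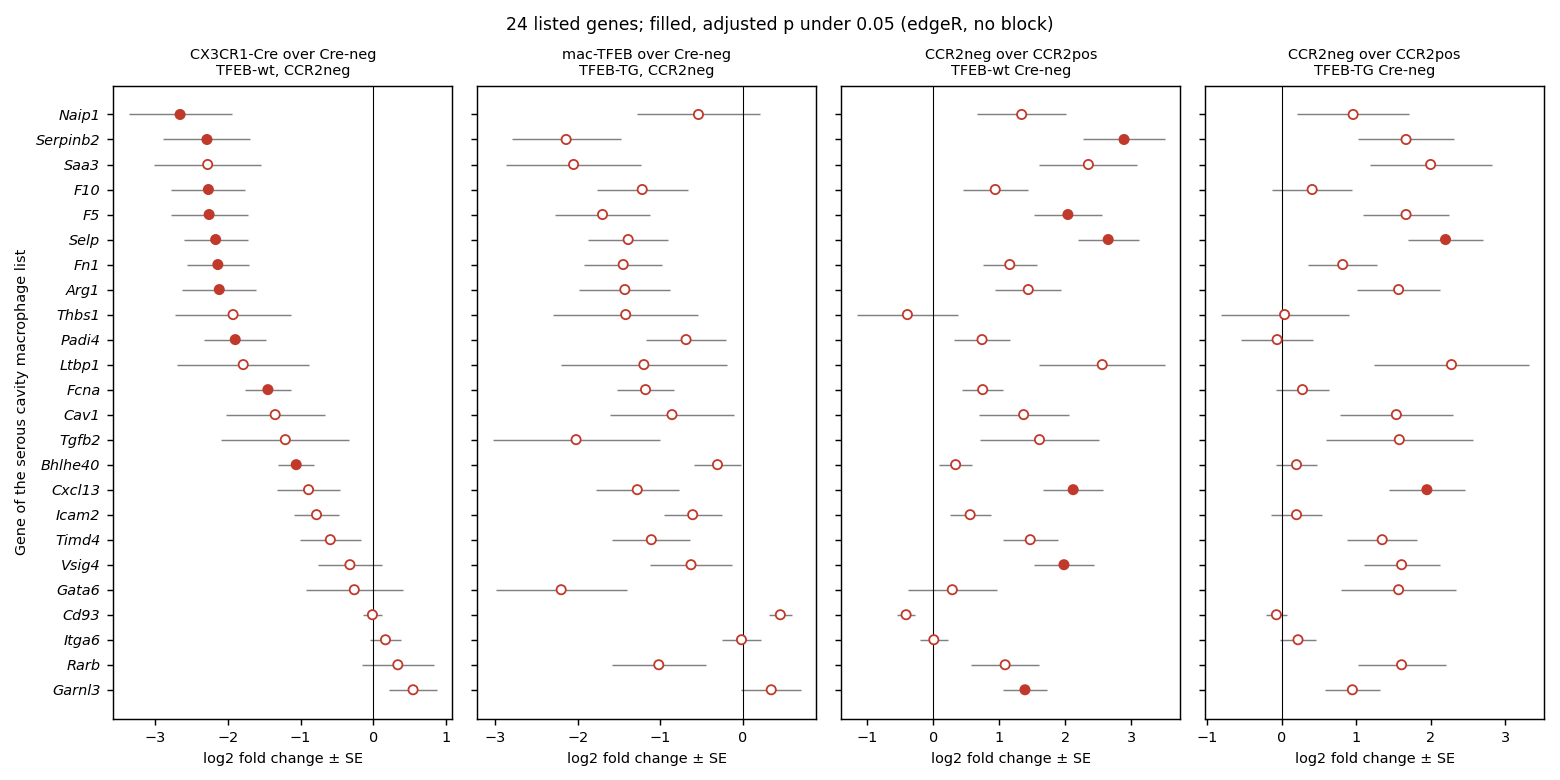
Log2 fold changes ± SE (horizontal axes, one panel per comparison) of the 24 listed genes (rows, ordered by the left panel), with filled points for an adjusted p under 0.05 (edgeR, no block). In the left panel 10 points are filled and negative, in the second none, in the third 6 and in the fourth 2, all positive.

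With TFEB, 1 gene of that list was called. Cd93 was at 393 ± 55.4 CPM in mac-TFEB against 220 ± 8.83 CPM in CX3CR1-Cre CCR2neg cells (0.84 ± 0.14, adjusted p = 0.000477, edgeR), where 0.922% of all genes were called as higher. The count was 2 without replicate 1 of CCR2neg mac-TFEB, 2 with DESeq2 (1 of them lower), 2 in a fit to these libraries alone (1 of them lower) and 4 with limma-voom quality weights (2 higher and 2 lower). The median over the list was 0.20, against 0.01 over all genes. In CCR2pos cells none was called, and none in either comparison of the cassette.

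Genes of the pathways that the members belong to were listed too. Of 21 measured eicosanoid genes, among which Alox15 and Ltc4s act, 4 fell and none rose in CX3CR1-Cre against Cre-neg CCR2neg TFEB-wt cells (median -0.05). Over all genes 1.63% were called as lower there. Ptges, the prostaglandin E synthase, fell to 1.03 ± 0.376 CPM in CX3CR1-Cre against 9.74 ± 4.22 CPM in Cre-neg cells (-3.25 ± 0.53, adjusted p = 0.000436). Ptgs2, the inducible cyclooxygenase, was at 58.7 ± 15.6 against 114 ± 33.2 CPM (-0.96 ± 0.25), Ltb4r1, a leukotriene B4 receptor, at 1.41 ± 0.968 against 6.74 ± 6.97 CPM, and Abcc1, which exports leukotriene C4, at 61.1 ± 12.0 against 88.5 ± 15.2 CPM. The highest Ltb4r1 value, 18.6 CPM, was that of replicate 3 of CCR2neg TFEB-wt Cre-neg. In CCR2neg TFEB-TG Cre-neg cells Ltb4r1 averaged 2.09 CPM. Between fractions of TFEB-wt Cre-neg cells, Alox5, which makes leukotriene A4, was higher at 252 ± 53.8 CPM in CCR2neg against 151 ± 33.7 CPM in CCR2pos cells (0.74 ± 0.17, adjusted p = 0.00954). Ptges and Abcc1 were higher there too, and the leukotriene receptor gene Cysltr1 lower. Over all genes 0.821% were called as higher and 1.53% as lower in that comparison. In TFEB-TG Cre-neg cells 1 was higher (Ptges) and 3 lower (Ptgs2, Cysltr1, Ltb4r1), where 0.789% of all genes were called as higher and 2.47% as lower. None of the 21 was called in either TFEB comparison.

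Of 15 measured complement genes, 3 fell in CX3CR1-Cre against Cre-neg CCR2neg TFEB-wt cells, where 1.63% of all genes were called as lower. C3 was at 39.4 ± 5.76 CPM in CX3CR1-Cre against 83.3 ± 21.9 CPM in Cre-neg cells (-1.08 ± 0.25), C4b at 360 ± 39.0 against 701 ± 137 CPM and properdin, Cfp, at 955 ± 114 against 1510 ± 310 CPM. With TFEB in CCR2neg cells, where C6 fell, 1 of the 15 was called: C1qa, a chain of C1q, was at 726 ± 199 CPM in mac-TFEB against 1230 ± 154 CPM in CX3CR1-Cre cells (-0.76 ± 0.20, adjusted p = 0.0424, edgeR). In that comparison 0.453% of all genes were called as lower and 0.922% as higher. Of 16 measured genes of fibroblast growth factor signaling, Grb2, an adaptor, was the one called in that comparison, at 108 ± 23.9 against 75.7 ± 5.32 CPM (0.52 ± 0.13), and none was called by Cre status without the block. Of 16 genes of proteoglycans and hyaluronan, the hyaluronidase gene Hyal2 and the syndecan gene Sdc1 fell and Sdc4 rose in CX3CR1-Cre against Cre-neg CCR2neg TFEB-wt cells, where 0.969% of all genes were called as higher. Of 11 genes of the glycophorin C membrane skeleton, the adducin gene Add3 fell (86.4 ± 12.0 against 128 ± 22.0 CPM), and of 6 organic anion transporter genes none was called.

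Markers of other cells that could carry these transcripts are given beside the members, and their part in the results was not tested. Monocyte genes moved with the members by Cre status. Monocyte medians were 379 and 329 CPM in CCR2neg TFEB-TG and TFEB-wt Cre-neg libraries, against 225 and 163 CPM in the mac-TFEB and CX3CR1-Cre ones. They were higher in every CCR2pos group (medians 982 to 1510 CPM). The eosinophil list had 6 of 12 genes measured, summing to 200 to 353 CPM in TFEB-TG and 177 to 306 CPM in TFEB-wt CCR2neg Cre-neg libraries against 116 to 306 CPM in the other groups, nearly all of it Alox5. Its lineage marker Siglecf had a median of 0.545 CPM over 36 libraries and did not exceed 2 CPM. Of the mesothelial list, 2 of 12 genes were measured, summing to 1.60 to 10.5 CPM in the 9 CCR2neg Cre-neg libraries and 0.706 to 14.9 CPM elsewhere. These low sums also moved by Cre status, with medians of 3.55 (TFEB-TG) and 4.62 CPM (TFEB-wt) in CCR2neg Cre-neg libraries. The matching CCR2neg mac-TFEB and CX3CR1-Cre medians were 1.25 and 1.55 CPM. In CCR2pos cells the medians were 5.33 and 9.07 CPM in Cre-neg against 2.59 and 1.94 CPM in mac-TFEB and CX3CR1-Cre libraries. Mast cell genes (4 of 10) summed to 2.65 to 13.9 CPM in those 9 libraries and 2.17 to 62.0 CPM elsewhere. Macrophage identity genes (10 of 10) summed to 27500 to 42800 CPM there and 27500 to 40900 CPM in the other groups. Resident heart macrophage genes (12 of 12) summed to 6180 to 12000 CPM there and 5640 to 9410 CPM elsewhere.

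Replicate 1 of CCR2neg TFEB-TG Cre-neg, high in cardiomyocyte and monocyte genes, held 61.2 CPM of Prg4, the highest of all, and 143 CPM of Alox15, within the range of the others. Its fibroblast (1330 CPM) and mast cell sums (13.9 CPM) were the highest of the 9 CCR2neg Cre-neg libraries. Wt1, on the mesothelial list, reached 5.12 CPM in it, the highest of all libraries. The part of such cells in its Prg4 level was not tested. Replicate 4 of that group, low in Prg4 and Alox15, had marker sums inside the range of the other 8 for macrophage identity (40100 CPM), resident heart macrophage (8170 CPM), monocyte (380 CPM) and cardiomyocyte genes (31.1 CPM), while its mast cell (2.65 CPM) and fibroblast sums (409 CPM) were the lowest of the 9.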

How the data were processed

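Per the labels' protocols, cDNA was made with a SMARTer kit, amplified for 12 cycles and sequenced as single reads of 50 bases without strand. Bowtie2, TopHat2 2.0.10 and HTSeq are among the tools, and GRCm38 is the build, that the submitters' processing notes name. The authors deposited 1 table of raw read counts for 12795 genes, filtered by a rule not given in the sources used here: in every gene the fourth highest library reached 1.01 CPM or more. All CPM and log2 values are this work's, from those counts.

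Group means were fitted once over 8 groups and 36 libraries (TMM scaling, R 4.3.3) and compared by quasi-likelihood F-tests in edgeR 4.0.16, with Benjamini-Hochberg adjustment over all 12795 genes and calls at an adjusted p under 0.05. The expression filter (minimum count 10) removed no gene. Standard errors were taken as log2 fold change divided by √F. Correlations used log2 CPM with a prior count of 2. Lowest raw counts of a member in a library were 6 (Prg4) to 688 (Ltc4s); at these levels the spread between libraries (common dispersion 0.0943) limits precision more than counting does for all but the lowest. The script was tested on simulated data.

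Members, 20 gene lists, tests and the rule for named genes were chosen with earlier results of these data known. The rule names all members, Tfeb, Cx3cr1 and Ccr2, up to 4 called genes per list by p, the 8 most abundant serous list genes, the 10 genes most like the members' mean and the 5 most like Prg4 and Alox15; further genes, Gata6, Timd4 and those of short counts among them, were named after their values were seen. Some genes that the rule names are not reported here.

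Label numbers pair libraries within a genotype: deviations from group means correlated above 0.1 in every same-numbered pair (lowest 0.118) except between fractions of TFEB-wt Cre-neg cells (0.0958), and in 9 of 9 labels Xist was in all libraries or in none. Between those TFEB-wt Cre-neg fractions same-numbered pairs averaged 0.329, against -0.0809 for other numbers. The label was used as a block (9 levels) in an alternative fit, printed where it changes a call. Other alternatives were tests by DESeq2 1.42.0, its size factors in edgeR, no filter, a filter at 1 CPM in 9 libraries that leaves 12120 genes, limma 3.58.1 voom with quality weights, a random label effect (correlation 0.266), a fit to each comparison's libraries and leaving out each library or label.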

Additional observations from a re-analysis of the deposited data

Results flagged for a closer look

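Each member was searched in each of 8 groups for a library far from the others of its group, 56 groups in all, of which about 1 in 20 is flagged by chance; 3 were. Gypc in CCR2neg CX3CR1-Cre cells had its highest library, replicate 1, at 26 CPM, with the next at 18.2 CPM. Slco4a1 in the same group had replicate 3 at 5.05 CPM, with the next at 2.13 CPM. Ltc4s in CCR2pos mac-TFEB cells had replicate 4 at 77.2 CPM, with the next at 60.7 CPM.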

How the results depend on the processing

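The 70 tested member values were recomputed under 3682 alternatives: 3671 kept their direction and side of the threshold where called, 3 lost a call, 8 gained one and none reversed; 110 values that were not called changed sign. The call of C6 with TFEB in CCR2neg cells held under all alternatives run. The call of Prg4 between fractions of CX3CR1-Cre cells was lost with limma-voom quality weights (adjusted p = 0.258) and with a random replicate block (adjusted p = 0.195). In that comparison 1 member was called, against 2 with DESeq2, 2 in a fit to its libraries alone, 0 with voom weights, 0 with the random block and 2 with the replicate block, and 0 to 2 leaving out libraries or labels. With the replicate block 1 member was called, against 0, in the fractions of mac-TFEB cells and in Cre status of CCR2pos TFEB-wt and TFEB-TG cells; it changed no other member's call. Serous list calls between fractions of TFEB-TG Cre-neg cells were 2, against 4 with DESeq2, 8 with the random block, 11 with the replicate block and 0 to 4 leaving out libraries or labels. Between fractions of TFEB-wt Cre-neg cells they were 6, against 10 with voom weights and 2 to 8 leaving out. The random block gave 15 there and the replicate block 16. For mac-TFEB against TFEB-TG Cre-neg CCR2neg cells they were 0, against 6 and 11 with the random and the replicate block. For CX3CR1-Cre against TFEB-wt Cre-neg CCR2neg cells they were 10 (14 with the replicate block) and 1 to 10 leaving out, and for TFEB in CCR2neg cells 1, against 2 with DESeq2, 2 in its own libraries, 4 with voom weights and 1 to 2 leaving out. The median r within groups was 0.207 and 0.178 to 0.350 leaving out libraries or labels. With the replicate block, counts over all genes were 552 against 102 (fractions of CX3CR1-Cre), 481 against 69 (of mac-TFEB), 808 against 301 and 1228 against 417 (of TFEB-wt and TFEB-TG Cre-neg), 965 against 333 and 134 against 1 (Cre status in TFEB-wt CCR2neg and CCR2pos) and 301 against 20 and 26 against 2 (in TFEB-TG). The causes were not tested. With 4 or 5 libraries a group, Prg4 in CCR2pos cells rests on as few as 6 counts.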

Other observations

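Of all genes, Nfe2 and Akr1b8 were the 2 with all 9 CCR2neg Cre-neg libraries above all 27 others, and were named after their values were seen. Akr1b8, an aldo-keto reductase, had a lowest value of 51.1 CPM in the 9 libraries against a highest of 48.7 CPM in the others, and Nfe2 had 2.21 CPM at both bounds after rounding. Batf3, a transcription factor of dendritic cells, was the 1 called gene of 9 on their list, at 15.9 ± 1.19 CPM in CX3CR1-Cre against 8.72 ± 1.69 CPM in Cre-neg CCR2neg TFEB-wt cells. It was lower with TFEB, at 7.52 ± 1.80 CPM in mac-TFEB against 15.9 ± 1.19 CPM in CX3CR1-Cre CCR2neg cells (-1.08 ± 0.19, adjusted p = 0.0015, edgeR). Both comparisons share the CX3CR1-Cre group. CCR2neg TFEB-TG Cre-neg cells averaged 6.4 CPM of Batf3, so the mac-TFEB mean was not below theirs. Tpsb2, a mast cell tryptase, was called in the same pair of comparisons, but 1 library, replicate 4 of CCR2neg CX3CR1-Cre, held 51.3 CPM of it against a median of 0.141 CPM over all libraries.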
